A study of Arabidopsis thaliana with 12 samples.

Results

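The 35 genes described here are nuclear genes of Arabidopsis thaliana whose products form the photosynthetic electron transport chain. They were taken by locus ID from the authors' deposited tables and comprise 12 genes for photosystem I subunits, 11 for photosystem II, 6 for electron carriers, 3 for the chloroplast ATP synthase and 3 for cyclic electron flow, without antenna genes. All 35 were measured in both tables, out of 18366 genes in the pfd4 table and 19397 in the 6x_pfd table. Messenger RNA had been sequenced from whole Col-0 seedlings, in 4 groups with 3 libraries each. The first experiment held pfd4 and wild-type (WT) seedlings grown in vitro for 14 days under LD (long days, by the usual meaning) and harvested at ZT1, hour 1 of the daily light cycle. Titles of these 14-day samples carry the word mock, and no treatment is described. The second experiment held 6x_pfd and WT seedlings grown in vitro for 7 days under LL (continuous light, by the usual meaning). The labels name no alleles and do not say how many lines carry each genotype.

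Photosystem II takes electrons from water, and photosystem I lifts them a second time with light energy and passes them to ferredoxin and NADP. Plastocyanin and the cytochrome b6f complex connect the photosystems, and the proton gradient that builds up drives the ATP synthase. Each complex is a mosaic of proteins made in the chloroplast from plastid genes and proteins imported from the cytosol, which are encoded by nuclear genes such as those described here. Prefoldin, the complex altered in both mutants, is a cytosolic and nuclear chaperone that hands unfolded actin and tubulin to a chaperonin. The comparison asked of each mutant is whether these transcripts differ from the WT of its own experiment.

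The authors' deposited tables give for each gene a mean normalized count over both genotypes, a log2 fold change (mutant over WT) with its standard error (SE), and an adjusted p from DESeq2. Values written with ± are log2 fold changes and their SE from 3 libraries per group, and a gene is said to have risen or fallen where adjusted p was below 0.05. WT and mutant levels are normalized counts that the mean and fold change of a gene imply together, so they carry no spread of their own. No values per library were analysed here, so the overlap of single samples cannot be described and the depth per library is unknown. The deposited mean counts summed to 29221246 for pfd4 and 32374115 for 6x_pfd. The SEs of the members ran from 0.06 to 0.15 in pfd4 and from 0.07 to 0.13 in 6x_pfd, whereas counting error alone at their implied levels would give at most 0.0347 in pfd4 and 0.0289 in 6x_pfd. The design text calls the libraries biological samples and says nothing of separate cultures, so p-values measure the spread between these samples. In the authors' deposited table PFD4 was at -1.99 ± 0.17 in pfd4. In 6x_pfd, 5 of the 6 prefoldin genes fell in the authors' deposited table, from -7.03 ± 0.42 for PFD1 to -1.15 ± 0.13 for PFD5, and PFD6 was at -0.16 ± 0.10 (adjusted p = 0.217 by DESeq2).

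Bases upstream of the genes are shown for 5 members that bracket the range of responses in 6x_pfd and have no other annotated gene in the window. PSAF, PSAK and PSBQ2 fell by more than 1 on the log2 scale, and PSBS and FNR2 did not pass the test. Each line gives 250 bases, 5′ to 3′ in the direction of transcription, that end just before the annotated start in the TAIR10.1 reference. Genes were matched to that reference by locus ID, since the deposited tables hold no coordinates, and the build in the submitters' processing notes is TAIR10. Capitals mark any of 7 short motifs searched on both strands, which are described with the promoters further on. The windows are chr1:11216142-11216391 on the minus strand for PSAF, chr1:10721933-10722182 on the plus strand for PSAK and chr4:2673244-2673493 on the minus strand for PSBQ2. For PSBS the window is chr1:16869971-16870220 and for FNR2 chr1:6942375-6942624, both on the plus strand.
PSAF: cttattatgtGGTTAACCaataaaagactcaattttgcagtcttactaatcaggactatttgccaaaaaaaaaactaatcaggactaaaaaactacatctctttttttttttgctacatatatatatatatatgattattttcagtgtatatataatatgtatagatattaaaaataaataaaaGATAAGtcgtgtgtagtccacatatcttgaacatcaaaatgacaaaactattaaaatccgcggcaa
PSAK: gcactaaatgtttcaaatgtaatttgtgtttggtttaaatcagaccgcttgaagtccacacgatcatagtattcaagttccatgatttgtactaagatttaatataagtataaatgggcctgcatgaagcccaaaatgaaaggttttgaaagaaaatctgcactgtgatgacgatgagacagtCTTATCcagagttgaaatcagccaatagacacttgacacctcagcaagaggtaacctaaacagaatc
PSBQ2: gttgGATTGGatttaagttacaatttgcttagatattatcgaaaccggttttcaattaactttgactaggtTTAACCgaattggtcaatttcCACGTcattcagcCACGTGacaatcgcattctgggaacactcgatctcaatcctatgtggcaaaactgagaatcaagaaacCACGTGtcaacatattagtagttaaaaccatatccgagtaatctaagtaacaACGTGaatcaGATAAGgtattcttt
PSBS: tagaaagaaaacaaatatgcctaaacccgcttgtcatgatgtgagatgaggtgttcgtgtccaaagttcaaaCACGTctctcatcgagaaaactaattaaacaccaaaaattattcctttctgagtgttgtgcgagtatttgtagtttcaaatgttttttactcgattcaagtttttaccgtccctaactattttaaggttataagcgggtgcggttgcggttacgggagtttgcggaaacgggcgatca
FNR2: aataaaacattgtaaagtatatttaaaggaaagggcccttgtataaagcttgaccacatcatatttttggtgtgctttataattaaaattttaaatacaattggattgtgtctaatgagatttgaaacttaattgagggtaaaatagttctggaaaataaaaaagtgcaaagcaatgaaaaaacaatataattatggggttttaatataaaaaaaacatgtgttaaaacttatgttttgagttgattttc

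In 6x_pfd at 7 days, 28 of the 35 genes fell and 7 did not pass the test, while 16.8% of all 19380 tested genes fell in the authors' deposited table. Among genes of at least 10 CPM, that is with mean counts scaled to a common total, a range that holds all members, 18.8% of 13178 fell. None rose, beside 16.9% of all tested genes. Equal library totals, here equal sums of the implied WT and mutant levels over all genes, were also tried. With them 27 members fell, beside 12.3% of all genes lower and 24% higher. The median log2 fold change of the members was -0.65, against 0.00 over all genes. Of the members, 91.4% lay below 0, compared with 49.8% of all genes. The direction was the opposite in pfd4 at 14 days, where the changes were small. There 5 of 35 genes rose, while 3.94% of all 18363 tested genes rose in the authors' deposited table, or 4.56% of the 12350 genes of at least 10 CPM. None fell, beside 3.81% of all tested genes. The median level of the members was 949 CPM in 6x_pfd and 1095 CPM in pfd4, far above that minimum of 10 CPM. Their median SE was 0.09 in each, against 0.12 over all genes in 6x_pfd and 0.13 in pfd4. Genes of like abundance were not taken as a background. The authors' deposited lists, which also ask for an absolute log2 fold change over 1, hold 7 members for 6x_pfd (PSAD2, PSAF, PSAK, PSAN, PSAO, PSBQ2 and PSBW), where 2.33% of all genes fell this far. They hold none for pfd4, where 0.801% of all genes rose this far. The member median in pfd4 was 0.12, against 0.00 over all genes, and 32 of 35 members, 91.4%, lay above 0 compared with 49.3% of all genes. An unadjusted p below 0.05 was reached in pfd4 by 14 members above 0 and by none below 0. The share of all genes at that unadjusted p was not counted, so these 14 have no background here.

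Most of these transcripts are abundant in the seedling. Ranked by implied WT level among all genes, their median rank was 83 at 7 days and 93 at 14 days. PGRL1B, the least abundant, ranked 4397 and 5153. Summed over the 35 genes, the implied levels made up 4.72% of all normalized counts in the 7-day WT and 3.08% in 6x_pfd. At 14 days the shares were 4.24% in WT and 4.65% in pfd4. Because whole seedlings were used, fewer photosynthetic cells and less RNA per cell cannot be told apart. Root markers, which stand for the other main organ of a seedling, had a median of 0.02 in 6x_pfd and -0.49 in pfd4, and their values are given with the other gene lists.

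**Figure D1:**
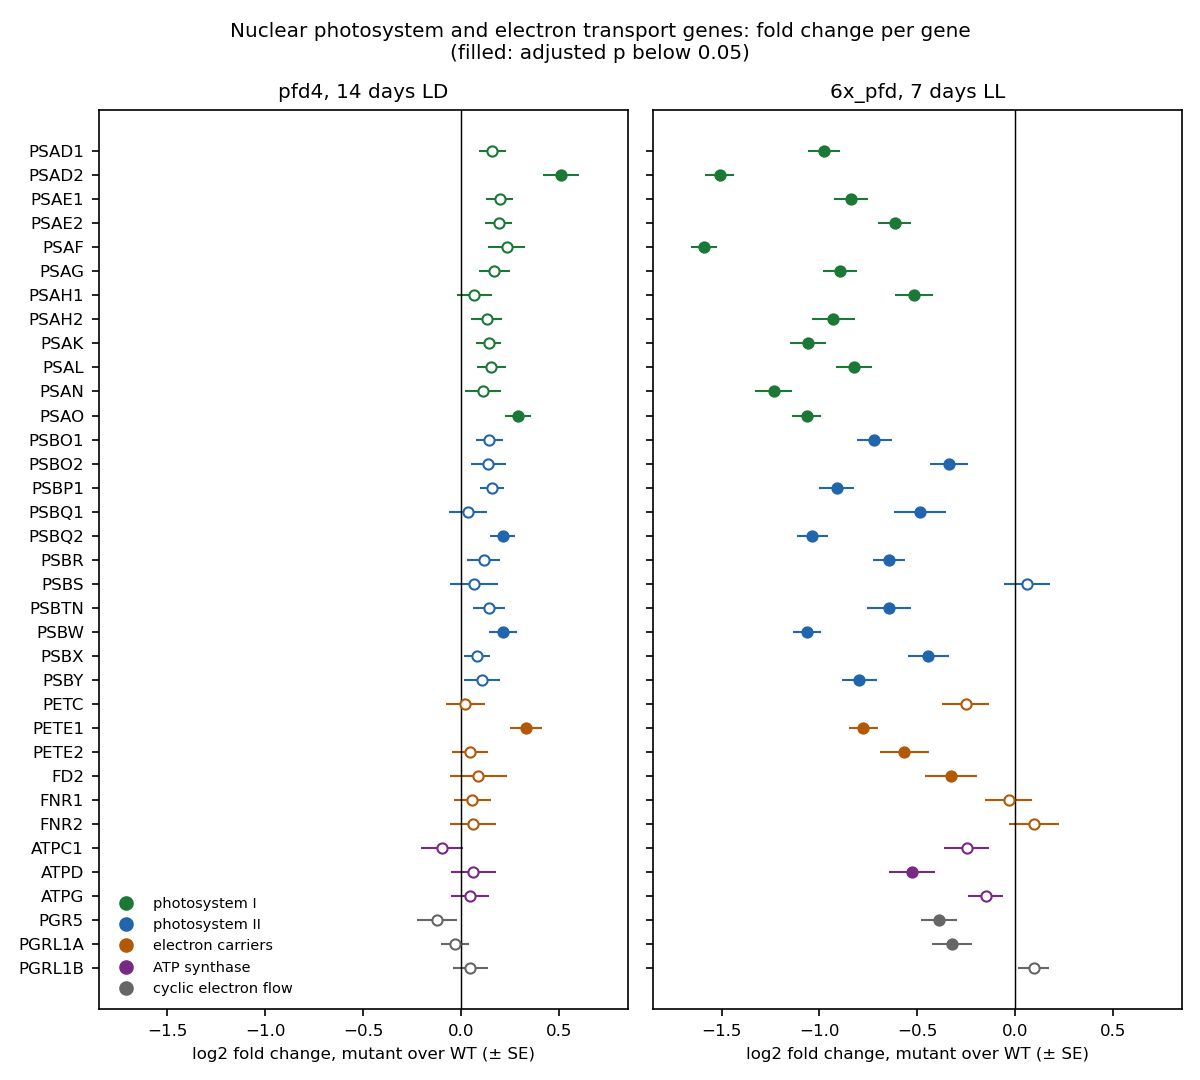
Log2 fold change of each of the 35 genes, mutant over WT, with its SE as a bar, in pfd4 (left) and 6x_pfd (right). Filled points have an adjusted p below 0.05 in the authors' deposited tables, and colours give the role. Photosystem genes lie left of 0 in 6x_pfd, apart from PSBS, and right of 0 in pfd4.

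Photosystem I had the lowest median of the 5 roles in 6x_pfd. All 12 of its nuclear genes fell in 6x_pfd (100%, beside 16.8% of all tested genes), with a median of -0.95. The summed level of the 12 went from 1.64% of all normalized counts in WT to 0.852% in the mutant. PSAF (AT1G31330) carries the docking site for plastocyanin on the lumenal side. Its implied level was 73125 in WT and 24282 in 6x_pfd, a log2 fold change of -1.59 ± 0.07 (adjusted p = 1.43e-118 by DESeq2) in the authors' deposited table. PSAF thus fell by 66.8%, and its p ranked 6 among all genes of that table. PSAD2 (AT1G03130) encodes a form of the stromal subunit that binds ferredoxin. It had an implied level of 26068 in WT and 9151 in 6x_pfd, with -1.51 ± 0.08 (adjusted p = 6.13e-86 by DESeq2) in the authors' deposited table, a rank of 13 by p. PSAN (AT5G64040), a lumenal subunit, was at -1.23 ± 0.09 in the authors' deposited table, with an implied 49618 in WT and 21087 in the mutant. These 3 genes had the largest decreases of the 35 in 6x_pfd.

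The remaining photosystem I genes lay between -1.07 and -0.52 in 6x_pfd. PSAO, at -1.07 ± 0.07, and PSAH2 and PSAL, at -0.93 ± 0.11 and -0.82 ± 0.09 in the authors' deposited table, encode subunits on the side where mobile light-harvesting complex II docks. PSAK and PSAG, which are membrane subunits at the antenna side of the complex, were at -1.06 ± 0.09 and -0.90 ± 0.09 in the authors' deposited table. PSAD1, the paralog of PSAD2, was at -0.98 ± 0.08 in the authors' deposited table, with an implied level of 59474 in WT and 30200 in the mutant. The stromal PSAE subunit, which also takes part in ferredoxin docking, had PSAE1 at -0.84 ± 0.09 and PSAE2 at -0.62 ± 0.08 in the authors' deposited table. PSAH1 had the smallest decrease of the complex, at -0.52 ± 0.10 (adjusted p = 1.35e-06 by DESeq2) in the authors' deposited table. The whole complex thus spanned a range of about 1 log2 unit, and no photosystem I gene failed the test in 6x_pfd.

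In pfd4, 2 of the 12 photosystem I genes rose (16.7%, beside 3.94% of all tested genes). PSAD2 went from an implied 15875 in WT to 22624 in pfd4, at 0.51 ± 0.09 (adjusted p = 3.45e-06 by DESeq2) in the authors' deposited table. PSAO went from 31302 to 38290, at 0.29 ± 0.07 (adjusted p = 0.000502 by DESeq2) in the authors' deposited table. The other 10 lay between 0.07 and 0.23 and did not pass. PSAE1, at 0.20 ± 0.07 in the authors' deposited table, missed the threshold with adjusted p = 0.0528 by DESeq2, and passed it after centring on the median (adjusted p = 0.0479), with equal library totals (0.0408) or among genes of at least 10 CPM (0.0453). PSAF, the member that fell most in 6x_pfd, was at 0.23 ± 0.10 (adjusted p = 0.119 by DESeq2) in the authors' deposited table.

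**Figure D2:**
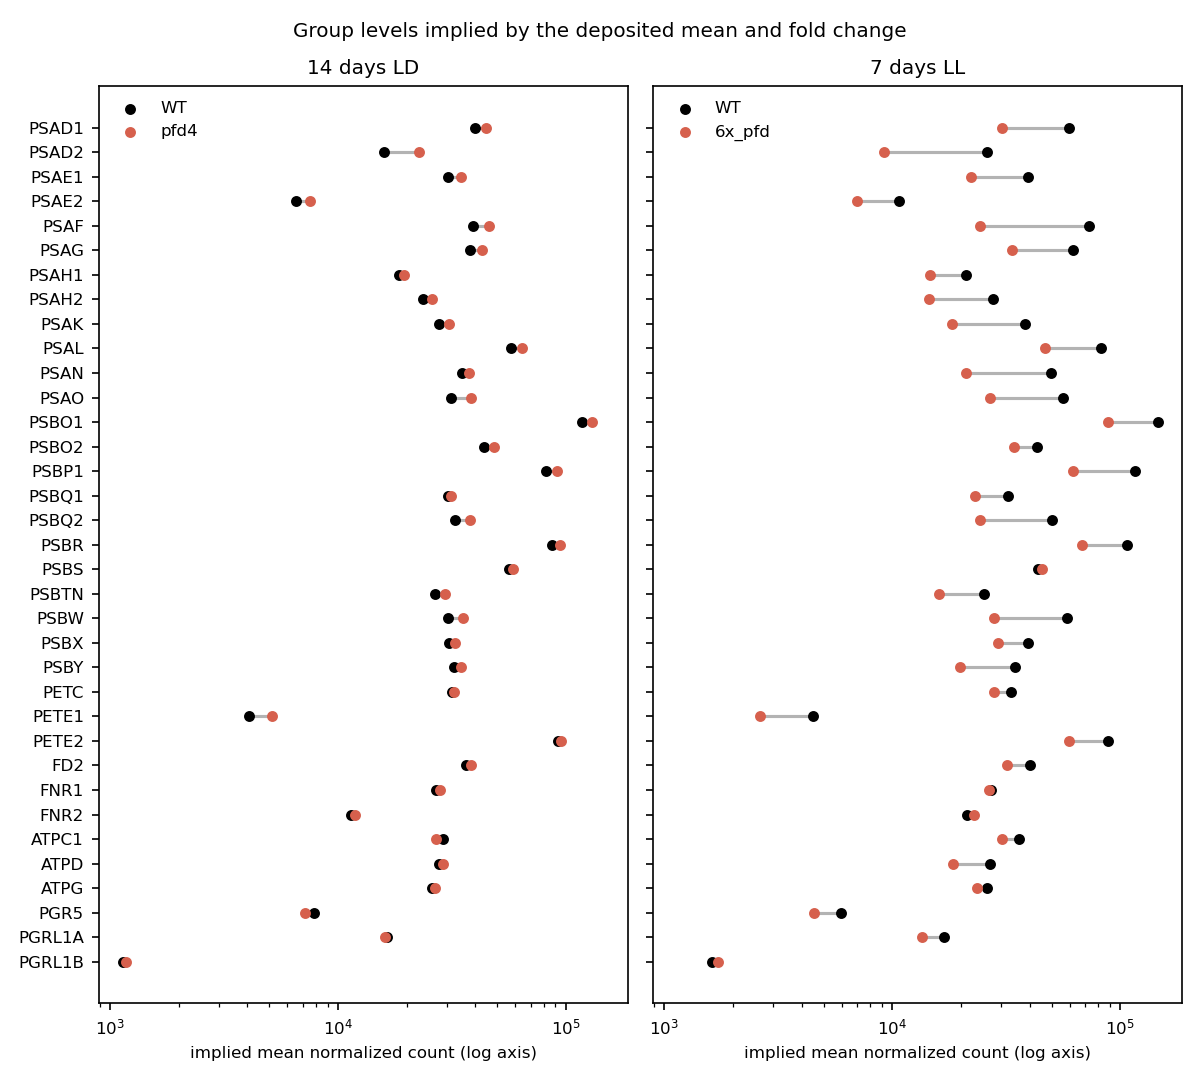
Implied mean normalized count of each gene (log axis) in WT (black) and mutant (red), at 14 days (left) and 7 days (right). The levels carry no error bars, since they derive from a mean over both genotypes and a fold change. The grey line between the points is longest for PSAF and PSAD2 at 7 days, where PSAF went from 73125 to 24282.

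Of the 11 photosystem II genes, 10 fell in 6x_pfd (90.9%, beside 16.8% of all tested genes), with a median of -0.65. The summed level of the 11 went from 2.09% of all normalized counts to 1.39%. The extrinsic proteins that stabilize the oxygen-evolving centre were included. PSBO1 (AT5G66570), the member with the highest count, had an implied level of 146331 in WT and 88770 in 6x_pfd, at -0.72 ± 0.09 (adjusted p = 1.47e-14 by DESeq2) in the authors' deposited table. PSBP1 was at -0.91 ± 0.09 and PSBQ2 at -1.04 ± 0.08 in the authors' deposited table. PSBQ2 went from an implied 49962 to 24360. PSBR, a further extrinsic protein, was at -0.65 ± 0.08 in the authors' deposited table, and had the highest level of the 35 per kilobase of exon in the 7-day WT, 136099. PSBO2 and PSBQ1, the paralogs, were at -0.34 ± 0.10 and -0.49 ± 0.13 in the authors' deposited table.

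All 4 small subunits of photosystem II measured here fell in 6x_pfd. PSBW (AT2G30570), which has been linked to the stability of photosystem II supercomplexes, went from an implied 58122 in WT to 27831 in 6x_pfd, at -1.06 ± 0.07 (adjusted p = 8.22e-49 by DESeq2) in the authors' deposited table. PSBY was at -0.80 ± 0.09, PSBTN at -0.65 ± 0.11 and PSBX at -0.44 ± 0.10 in the authors' deposited table. PSBS (AT1G44575) was the member of this group that did not pass. It is the pH sensor of energy-dependent quenching, which dissipates excess light as heat. Its implied level was 43458 in WT and 45294 in 6x_pfd, at 0.06 ± 0.12 (95% interval -0.17 to 0.29, adjusted p = 0.75 by DESeq2) in the authors' deposited table.

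In pfd4, PSBW (0.21 ± 0.07, adjusted p = 0.0434 by DESeq2) and PSBQ2 (0.21 ± 0.06, adjusted p = 0.0153) rose in the authors' deposited table. These 2 make up 18.2% of the 11 genes, beside 3.94% of all tested genes. PSBW went from an implied 30331 in WT to 35185, and PSBQ2 from 32658 to 37826. Both calls were lost at an FDR of 0.01. The other 9 photosystem II genes lay between 0.04 and 0.16, with PSBO1 at 0.14 ± 0.07 and PSBS at 0.07 ± 0.12 in the authors' deposited table, and the median of all 11 was 0.14.

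Of the 6 genes for electron carriers 3 fell in 6x_pfd, with a median of -0.29. PETE1 (AT1G76100) and PETE2 (AT1G20340) encode plastocyanin, the copper protein that carries electrons to photosystem I. PETE1 was at -0.78 ± 0.08 and PETE2 at -0.57 ± 0.12 in the authors' deposited table. The implied PETE2 level was 88561 in WT and 59796 in 6x_pfd. FD2 (AT1G60950), the main leaf ferredoxin, was at -0.33 ± 0.13 (adjusted p = 0.0412 by DESeq2) in the authors' deposited table, a call that was lost with equal library totals (adjusted p = 0.13) and at an FDR of 0.01. PETC, the Rieske iron-sulfur protein of cytochrome b6f, was at -0.25 ± 0.12 (adjusted p = 0.0875 by DESeq2) in the authors' deposited table and did not pass.

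The genes for leaf ferredoxin-NADP reductase, the last enzyme of linear flow, did not pass in either mutant. FNR1 (AT5G66190) was at -0.03 ± 0.12 (95% interval -0.27 to 0.20) and FNR2 (AT1G20020) at 0.09 ± 0.13 (95% interval -0.15 to 0.34) in 6x_pfd in the authors' deposited table. With equal library totals FNR1 was at 0.04. The implied FNR1 level was 27098 in WT and 26456 in 6x_pfd. Among the carriers PETE1 rose in pfd4, from an implied 4073 to 5127, at 0.33 ± 0.08 (adjusted p = 0.00152 by DESeq2) in the authors' deposited table. That is 1 of 6 carriers in pfd4 (16.7%, beside 3.94% of all tested genes). The other 5 carriers lay between 0.02 and 0.09 there.

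Of the 3 nuclear genes for the chloroplast ATP synthase, ATPD (AT4G09650) fell in 6x_pfd (33.3%, beside 16.8% of all tested genes). It encodes the delta subunit of the soluble head, and was at -0.53 ± 0.12 (adjusted p = 5.87e-05 by DESeq2) in the authors' deposited table, from an implied 26708 in WT to 18546. ATPC1, the gamma subunit at the centre of the rotor, was at -0.25 ± 0.12 (adjusted p = 0.0817 by DESeq2), and ATPG, a membrane-anchored stalk subunit, at -0.15 ± 0.09 (adjusted p = 0.191 by DESeq2) in the authors' deposited table. PGR5 (AT2G05620) and the PGRL1 proteins return electrons from photosystem I to the plastoquinone pool in cyclic flow. PGR5 (-0.39 ± 0.09) and PGRL1A (-0.32 ± 0.10) fell in 6x_pfd in the authors' deposited table, 66.7% of the 3 genes for cyclic flow. PGRL1B was at 0.09 ± 0.08 (adjusted p = 0.391 by DESeq2), and had the lowest implied level of the 35 genes, 1612 in the 7-day WT. None of these 6 genes passed in pfd4, where they lay between -0.12 for PGR5 and 0.06 for ATPD in the authors' deposited table.

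Among the members, 8 pairs of paralogs are found, and in several of them the ratio of the partners was not the same in WT and 6x_pfd. Per kilobase of exon, the implied level of PSAD1 was 1.92 times that of PSAD2 in the 7-day WT and 2.78 times in 6x_pfd. The ratio of PSBQ1 to PSBQ2 went from 0.822 to 1.204, and that of PSAH1 to PSAH2 from 0.411 to 0.548. The ratio of PSBO1 to PSBO2 went from 2.98 to 2.29, that of PSAE1 to PSAE2 from 2.80 to 2.40, that of FNR1 to FNR2 from 1.55 to 1.41 and that of PGRL1A to PGRL1B from 10.6 to 7.94. PETE1 was the minor plastocyanin gene in all groups, at 0.0650 times PETE2 per kilobase of exon in the 7-day WT and 0.0563 times in 6x_pfd. The differences within pairs were not tested. In each of the pairs PSAD, PSAH, PSBO, PSBQ and PETE both copies fell in 6x_pfd, as did both PSAE genes, whereas both FNR genes did not pass and PGRL1 was split.

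Coding sequences of the paralogs were 75% identical (PETE) to 88% identical (PSAD) over the aligned bases. The longest run of bases shared by a pair was 38, between PGRL1A and PGRL1B. The sources used here do not say how reads that fit both copies were counted, so the values of single copies are uncertain to that extent. In the TAIR10.1 annotation, 9 members overlap a gene on the opposite strand, 5 of them by more than 100 bases, namely PSAE1, PSAG, PSAH1, PSAH2 and FNR1. Libraries came from a stranded kit, but the sources used here do not state whether counting used the strand.

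Whether the response of a gene differed between the mutants was tested as its log2 fold change in 6x_pfd minus that in pfd4. A gene that fell in 6x_pfd alone can pass this test, which does not ask for opposite directions. The difference was below 0 and passed the test for 25 of the 35 genes and above 0 for none, while 12.0% of the 18035 genes in both tables were lower and 11.8% higher in 6x_pfd by this test. By role, the difference passed for 12 of 12 photosystem I genes, 10 of 11 photosystem II genes, PETE1 and PETE2 of the 6 carriers, ATPD of the 3 ATP synthase genes and none of the 3 genes of cyclic flow. It lay furthest from 0 for PSAD2 (-2.02 ± 0.12, adjusted p = 1.2e-60 by a two-sided Wald test with Benjamini-Hochberg adjustment) and PSAF (-1.82 ± 0.12, adjusted p = 7.39e-52 by the same test). PSBS was at -0.01 ± 0.17 (adjusted p = 0.986 by the same test). Genotype, age and light regime cannot be told apart in this comparison, since no genotype other than WT was grown in both settings.

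Each of the 5 genes that rose in pfd4 fell in 6x_pfd, which is 14.3% of the members, compared with 1.29% of all genes in both tables. In all, 29 of 35 members were above 0 in pfd4 and below 0 in 6x_pfd, whether or not they passed. Over all genes, 49.3% lay above 0 in pfd4 and 49.8% below 0 in 6x_pfd, and the share with both signs was not counted. Across the 35 genes, the members further below 0 in 6x_pfd tended to be further above 0 in pfd4 (Pearson r = -0.70, Spearman rho = -0.79). Within the 11 photosystem II genes r was -0.76 and rho -0.80, and within the 12 photosystem I genes r was -0.61 and rho -0.41. Over the 18035 genes in both tables r was 0.00 and rho -0.10. This is a description across genes, which are not independent replicates and within each table share the same libraries, and the tables share no libraries with each other.

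**Figure D3:**
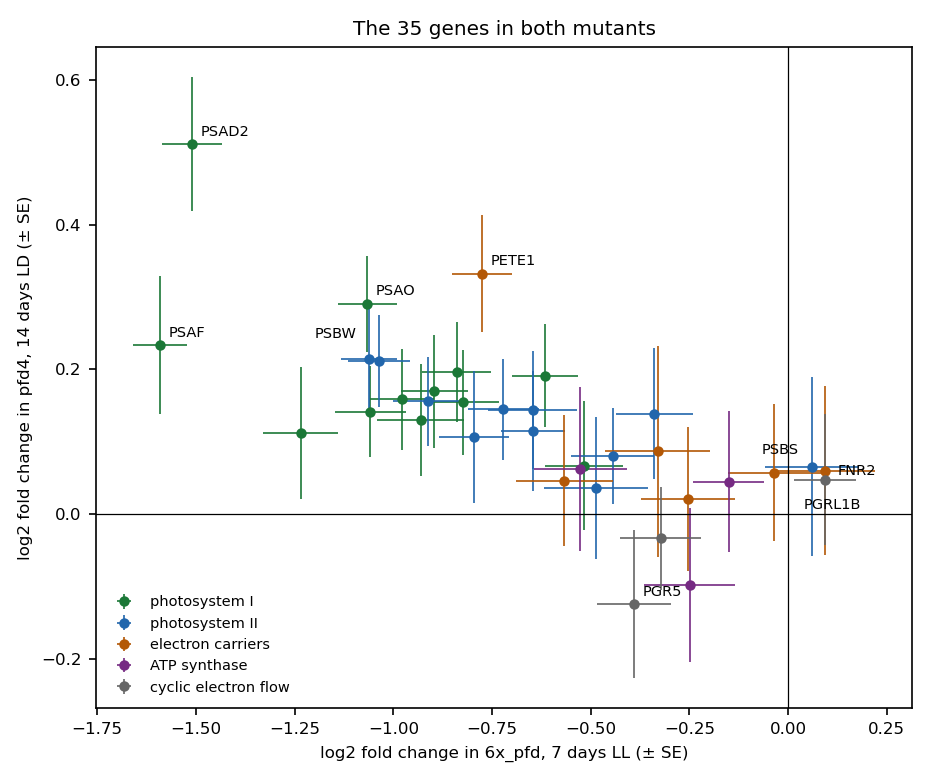
Log2 fold change in 6x_pfd (x axis) against that in pfd4 (y axis) for the 35 genes, with SE bars in both directions and colours for roles. Photosystem genes fill the upper left, PSAD2 lies highest, at -1.51 and 0.51, PSAF lies furthest left, at -1.59 and 0.23, and PSBS, FNR2 and PGRL1B lie close to 0 on both axes.

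Other genes of the photosynthetic machinery place these values. Genes of the light-harvesting antenna, which feed energy to both photosystems, had the same directions as the photosystem genes. Of 20, 17 fell in 6x_pfd (85.0%, beside 16.8% of all tested genes) and 1 rose, with a median of -1.30. In pfd4 11 rose (55.0%, beside 3.94%) and none fell, with a median of 0.25. LHCB1.4 and LHCB5 had the smallest p in 6x_pfd, at -2.01 ± 0.11 and -1.13 ± 0.08 in the authors' deposited table. LHCB4.3, a minor form of the antenna protein CP29 named here because it moved against its list, rose in 6x_pfd by 0.95 ± 0.18 in the authors' deposited table. LHCB1.2 (0.38 ± 0.08) and LHCB1.1 (0.26 ± 0.06) had the smallest p of the list in pfd4 in the authors' deposited table. The LHCB1 genes are near copies of each other, so values of single copies are uncertain. The antenna sum went from 6.81% of all normalized counts in WT to 2.92% in 6x_pfd, and from 4.52% to 5.37% in pfd4.

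Of 22 genes for factors that assemble the photosystems and cytochrome b6f, 5 fell in 6x_pfd (22.7%, beside 16.8%) and none rose, with a median of -0.16, and none passed in pfd4. ALB3, which inserts proteins into the thylakoid membrane, was at -0.53 ± 0.08 and LPA2, a photosystem II assembly factor, at -0.52 ± 0.11 in 6x_pfd in the authors' deposited table. PAM68 and PSA2 had the smallest p of this list in pfd4, at 0.24 ± 0.10 and 0.18 ± 0.10 in the authors' deposited table, and did not pass. Of 17 nuclear genes of the NDH complex, the other route of cyclic flow, 3 rose in 6x_pfd (17.6%, beside 16.9% of all tested genes) and none fell. Among those that rose were PNSL3 (0.61 ± 0.16) and NDHO (0.35 ± 0.10) in the authors' deposited table. In pfd4 1 of 17 fell (5.88%, beside 3.81%), NDHT (-0.37 ± 0.11), and NDHS, at 0.19 ± 0.07, did not pass in the authors' deposited table. Of 24 other thylakoid and electron transport genes, 6 fell (25%, beside 16.8%) and 3 rose (12.5%, beside 16.9%) in 6x_pfd. The thylakoid curvature genes CURT1C (-0.80 ± 0.08) and CURT1B (-0.63 ± 0.11) had the smallest p there in the authors' deposited table. In pfd4 2 of 24 rose (8.33%, beside 3.94%) and none fell, and those that rose were CURT1A (0.24 ± 0.06) and CURT1C (0.22 ± 0.07) in the authors' deposited table.

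Subunits of the same complexes that are encoded in the plastid genome did not fall with the nuclear ones. Of 32 such genes 30 were measured in each table, and in 6x_pfd 11 rose (36.7%, beside 16.9% of all tested genes) and none fell, with a median of 0.65. PSAC (2.04 ± 0.47) and PSAI (2.04 ± 0.51), both of photosystem I, ranked first by p in the authors' deposited table, with mean normalized counts of 80.8 and 56.8. The library kit selects RNA with poly(A) tails, which most plastid transcripts lack, and whether these counts follow the true levels of plastid transcripts was not tested. In pfd4 none of the 30 passed, with a median of 0.09, and ATPE (0.33 ± 0.17) and ATPB (0.23 ± 0.13) came first by p in the authors' deposited table.

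Among 13 regulators of photosynthesis genes, 3 fell (23.1%, beside 16.8% of all tested genes) and 2 rose (15.4%, beside 16.9%) in 6x_pfd. In pfd4, 4 fell (30.8%, beside 3.81%) and none rose (beside 3.94%). GLK2, a transcription factor that activates nuclear photosynthesis genes, was at -0.83 ± 0.11 in 6x_pfd and at -0.11 ± 0.10 (adjusted p = 0.616 by DESeq2) in pfd4 in the authors' deposited table. SIG4, a sigma factor of the plastid RNA polymerase, rose by 0.73 ± 0.14 in 6x_pfd in the authors' deposited table. GLK1, the paralog of GLK2, fell in pfd4 (-0.30 ± 0.09) and was at -0.15 ± 0.16 in 6x_pfd in the authors' deposited table. SIG5, a light- and stress-responsive sigma factor, fell in both mutants, at -0.50 ± 0.14 in pfd4 and -0.38 ± 0.09 in 6x_pfd in the authors' deposited table.

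Root markers were measured for 12 genes in 6x_pfd and 10 in pfd4, where RSL4 and COBL9 are not among the genes of the table. In 6x_pfd 4 rose (33.3%, beside 16.9%) and 1 fell (8.33%, beside 16.8%), and the summed implied level was 8111 in WT and 9048 in the mutant. RSL4 (0.90 ± 0.22), a regulator of root hair growth, and EXPA7 (0.60 ± 0.16), a root hair expansin, came first by p in the authors' deposited table. In pfd4 2 of 10 fell (20.0%, beside 3.81%), and CASP2, which acts in the root endodermis, was at -0.66 ± 0.16 in the authors' deposited table. There the summed implied level was 4284 in WT and 3538 in the mutant. In neither table was a measured root marker at 0. The log2 ratio of the summed levels was 0.16 in 6x_pfd, where 6 of the 12 markers lay above 0 and 6 below. It was 0.08 over the 10 markers of both tables, and -0.10 without the root hair genes RSL4, EXPA7, EXPA18 and COBL9, which were set apart after their values were seen. In pfd4 it was -0.28, with 9 of 10 markers below 0, and -0.26 over the 8 markers that are not root hair genes. The part of these markers in the results was not tested.

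**Figure D4:**
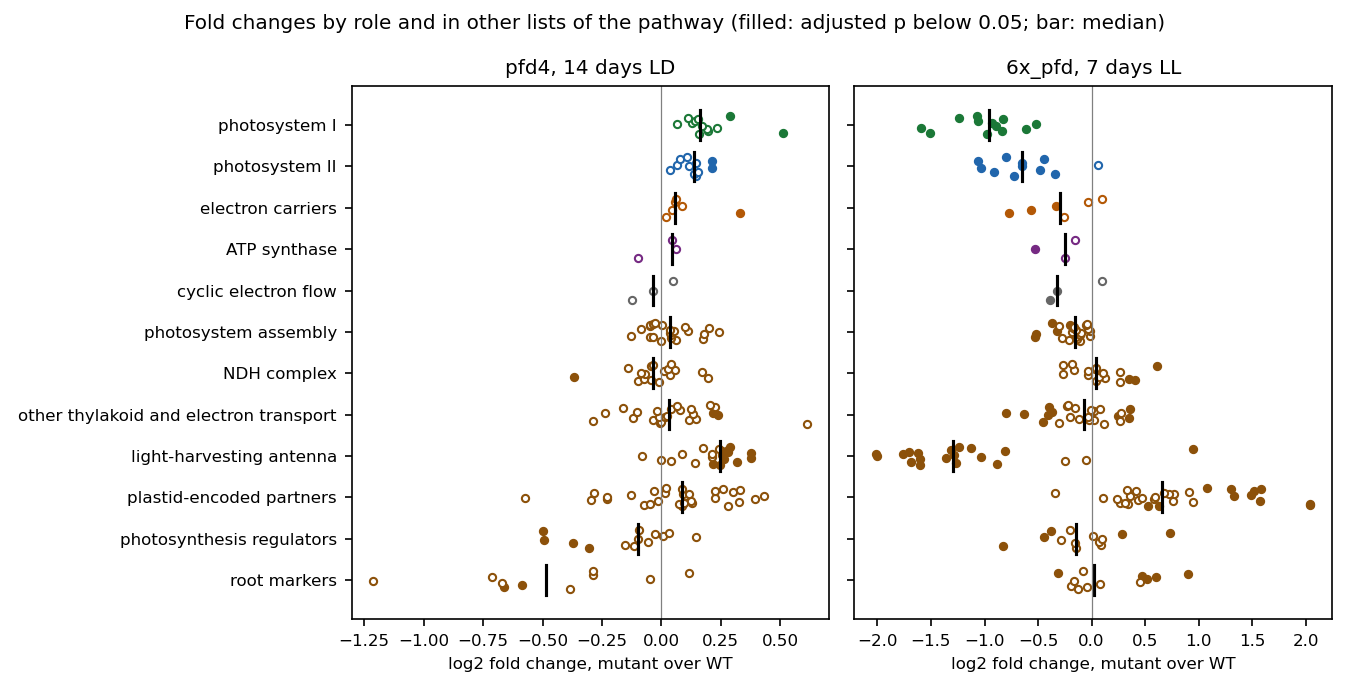
Log2 fold change of every measured gene by role (the 35 genes, upper 5 rows) and in 7 other gene lists (lower rows), in pfd4 (left) and 6x_pfd (right). Filled points have an adjusted p below 0.05 and black bars are medians, and the x axes of the panels differ. In 6x_pfd the bars lie at -0.95 for photosystem I, -0.65 for photosystem II and -0.32 for cyclic flow. Electron carriers lie at -0.29 and ATP synthase at -0.25. The antenna lies at -1.30, the plastid-encoded partners lie at 0.65, and the other lists lie between -0.16 and 0.04.

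Motifs were counted in the window from 250 bases before to 50 bases after the annotated start of each gene, on both strands, for the 35 members and for 27443 promoters of TAIR10.1. The letters GATAAG, which contain the core bound by GATA factors, were found in 20 member windows (57.1%) and in 14.6% of all. The G-box CACGTG, bound by bZIP and bHLH factors, was found in 12 members (34.3%) and in 7.68% of all. ACGTG, which lies within CACGTG, was in 54.3% of members and 26.7% of all, GGTTAA in 22.9% and 16.7%, and CCAATC, the CCAAT box with a further base, in 20.0% and 12.3%. AAAATATC, the evening element without its last base, was in 8.57% of members and 6.89% of all, and AAACCCTA in none of the members and 6.22% of all. Of the photosystem I genes 8 of 12 held GATAAG and 4 held CACGTG, and of the photosystem II genes 4 of 11 and 7 of 11 did.

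When the window was limited to the bases before the start, GATAAG was in 28.6% of members and CACGTG in 17.1%, compared with 12.3% and 6.49% of all promoters. In the sequences printed above, PSAF holds GATAAG 66 bases before the start, PSAK the same letters on the other strand 67 bases before it, and PSBQ2 CACGTG at 145 and 77 bases before it. PSBS holds there only the shorter ACGTG, on the other strand, and FNR2 none of the 7 motifs. Other members did not share this contrast. PSAD2, PSAN, PSAO and PSBW fell by more than 1 on the log2 scale and hold none of the 7 motifs before the start. PETC, FNR1, ATPG and PGRL1B did not pass in 6x_pfd and hold GATAAG there, on either strand. The medians that follow are instead for the full window, which also takes in the bases after the start. With that window, the median log2 fold change in 6x_pfd was -0.71 in members with GATAAG and -0.62 in those without. With and without CACGTG the medians were -0.65 and -0.57, and with and without GGTTAA also -0.65 and -0.57. The order was the other way for ACGTG, with medians of -0.53 and -0.86, for CCAATC, with -0.53 and -0.68, and for AAAATATC, with -0.44 and -0.68. A match is a description of the letters and was not tested as a binding site.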

How the data were processed

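Messenger RNA was measured in 12 whole-seedling samples in 4 groups of 3, grouped by title, genotype and growth labels. Per the submitters' processing notes, the tools were cutadapt, HISAT2, HTSeq and DESeq2 and the build was TAIR10, with no versions or roles stated. For each gene the authors deposited a mean normalized count (a signal averaged over libraries), a log2 fold change with its SE, the Wald score, and raw and adjusted p-values, per the file headers. The table names state a minimum RPKM of 1.

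Because the tables hold no values per library, no count model was fitted and the deposited adjusted p-values, over each whole table, were used as they stand. Implied levels follow from mean and fold change with equal group sizes. Differences between the mutants were two-sided Wald tests on the combined SE (root of the sum of squares), adjusted over 18035 genes, in a script tested on simulated data. Exon lengths, overlaps, coding sequences and promoters came from TAIR10.1 by locus ID. The members and lists were chosen with earlier results of these data known. The text names all 35 members and, from each other list, the 2 genes with the smallest p in each comparison, except 1 gene that is not reported here. LHCB4.3, COBL9, EXPA18, values of GLK1 and GLK2 in the other mutant and the prefoldin genes were added after values were seen. Alternatives were an FDR of 0.01, a minimum absolute log2 change of 1, centring on the median and a minimum of 10 CPM. Further ones were equal library totals and a test against a 25% rise or a fall by the same fold, which is less than 25%. Sums over subsets of the root markers were added after the data were seen. Python 3.11.15, pandas 2.3.3, numpy 2.4.6, scipy 1.17.1 and matplotlib 3.10.9 were used.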

Additional observations from a re-analysis of the deposited data

Results flagged for a closer look

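The effects of the mutants differed for 25 of the 35 genes, by a two-sided Wald test of the log2 fold change in 6x_pfd minus that in pfd4, adjusted over 18035 genes. Each of these differences was below 0. Genotype, age, light regime, the mock label and the labelled harvest hour cannot be told apart in them. Among photosystem I genes the difference was -2.02 for PSAD2, -1.82 for PSAF, -1.36 for PSAO, -1.35 for PSAN, -1.20 for PSAK and -1.14 for PSAD1. It was -1.07 for PSAG, -1.06 for PSAH2, -1.04 for PSAE1, -0.98 for PSAL, -0.81 for PSAE2 and -0.58 for PSAH1. Among photosystem II genes it was -1.28 for PSBW, -1.25 for PSBQ2, -1.07 for PSBP1, -0.90 for PSBY and -0.87 for PSBO1. Smaller differences were those of PSBTN (-0.79), PSBR (-0.76), PSBQ1 (-0.52), PSBX (-0.52) and PSBO2 (-0.48). Outside the photosystems the difference was -1.11 for PETE1, -0.61 for PETE2 and -0.59 for ATPD.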

How the results depend on the processing

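The count of 28 lower members in 6x_pfd was 27 at an FDR of 0.01 and with equal library totals (12.3% of all genes lower in each). It was 28 after centring (16.9%) or among genes of at least 10 CPM (18.8%). Tested against a fall by the fold of a 25% rise, which is a fall of less than 25%, it was 19 (4.13%). With a minimum absolute log2 change of 1 it was 7 (PSAD2, PSAF, PSAK, PSAN, PSAO, PSBQ2 and PSBW), the members of the authors' deposited list, beside 2.33% of all genes. The count of 5 higher members in pfd4 was 6 after centring, with equal library totals or among genes of at least 10 CPM (4.01%, 4.1% and 4.56% of all genes higher). It was 3 at an FDR of 0.01, beside 2.55% of all genes, and 0 both in the test against a 25% change and at that minimum change, where 0.697% and 0.801% of all genes rose. The difference between the mutants passed for 25 members as deposited (12.0% of all genes lower in 6x_pfd), at an FDR of 0.01 (8.2%), after centring (12.2%) and with equal library totals (9.59%). Equal library totals stands for equal sums of implied levels, since no totals per library were at hand. A shift of -0.08 in 6x_pfd and -0.01 in pfd4 was removed from every fold change. In 6x_pfd the sum over all genes went from 33252658 in WT to 31495572. It includes the members (1569669 to 970038) and the antenna (2263125 to 920962), so the shift is not independent of them. This setting turned FNR1 in 6x_pfd to 0.0437 and the PSBS difference to 0.0642, neither of which passed. Leaving out each library in turn was not run, since no values per library are in the tables used. No paired analysis was possible because the tables carry no values per library. Depth per library is unknown, so no limit of detection is given.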
